A study of Meleagris gallopavo with 3 samples.

Results

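The Wnt ligands, their receptors and their secreted modulators were followed in turkey satellite cells, the resident stem cells of skeletal muscle, grown in 3 ways. The set held every feature of the expression table whose ID named a WNT, FZD, SFRP, DKK or RSPO gene followed by a digit, or LGR4, LGR5, LGR6, LRP5, LRP6, ROR1, ROR2, WIF1, NOTUM, ZNRF3, RNF43, AXIN1, AXIN2, CTNNB1, LEF1 or a TCF7 gene. The rule found 50 members among 23976 features, and it used names only, not measured values. By role the members were 16 Wnt ligands, 12 receptors, 8 secreted inhibitors, 9 genes of the R-spondin arm and 5 cytoplasmic or nuclear proteins.

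Wnt proteins are secreted, lipid-modified ligands that bind Frizzled receptors on nearby cells. With the co-receptors LRP5 and LRP6 they stop the AXIN-based destruction complex from degrading β-catenin (CTNNB1), which then acts on target genes with TCF and LEF factors, while ROR1 and ROR2 receive WNT5-type signals that do not need β-catenin. SFRP, WIF1 and NOTUM proteins act on the ligand, DKK proteins act mostly on the co-receptors, and R-spondins, through LGR receptors, spare Frizzled from the membrane ligases ZNRF3 and RNF43. In mouse muscle, WNT7A and FZD7 are known for the expansion of satellite cells through the planar polarity branch, and β-catenin signalling is known from muscle differentiation and repair.

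The cells came from the breast muscle of untreated turkeys that were 1 day old, were dissociated with enzymes and grown for 2 weeks before they were split, and no sort by a surface marker was described. The Differentiating culture was adherent and was moved to medium with 4% horse serum so that the cells fused. The Adherent culture stayed undifferentiated on gelatin-coated dishes in medium with 15% chicken serum. The Suspension culture was kept in rotated flasks for 3 months, so that time in culture and attachment cannot be told apart in it. Its medium also held 15% chicken serum. Serum thus differed between the Differentiating culture and both others. By the study's methods the basal medium differed as well, DMEM in the Differentiating culture and a McCoy's medium in both others. The part of serum and of basal medium in the results was not tested. RNA of 3 experiments was pooled into 1 library per culture, so there were no replicates, no SD and no test between cultures.

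The libraries are named by the headings of their count columns, and those headings were not used in one way throughout the table. The authors' fold change headed as Suspension against Differentiating was, in 100% of the 12207 genes holding 10 reads or more, the quotient of the columns headed Adherent and Differentiating, with a log2 tolerance of 0.02. The fold change headed as Adherent against Differentiating was the quotient of the columns headed Suspension and Differentiating in 12154 genes, whereas the one headed as Suspension against Adherent followed the count headings in 12196 genes. Which use was right cannot be read from the values alone. The study's own published table of leading genes applies the names adherent and suspension to WNT10A and WNT7A the other way round from the count headings. It also lists RSPO4 for differentiating against suspension cells, where the count headings put its widest ratio against the Adherent library. The Adherent and Suspension libraries are therefore named here by count heading only, and which of them came from the attached and which from the suspended cells is not settled. If the columns headed Adherent and Suspension were exchanged, every direction between those cultures given here would turn round and each comparison with the Differentiating library would take the values of the other.

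The Differentiating library held 22816125 exon reads, the Adherent library 17444865 and the Suspension library 23844835. Levels are given as CPM, the exon reads of a gene scaled to 1000000 exon reads in the library, with 1 read worth between 0.0419 and 0.0573 CPM. A member was compared where at least 1 library reached 5 CPM. A difference of 2-fold or more in either direction (1 or more on the log2 scale) was called a change. A count of 0 was set to 3 reads, so such a ratio depends on that setting, and its 95% interval is open on 1 side. The 95% intervals (exact Poisson for levels, Clopper-Pearson for ratios) cover counting error only. With 1 library per culture they hold no spread between repeats of a culture. Reads are not independent molecules, so the intervals can be too narrow even for counting error.

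The Adherent library stood apart from the others in its intron reads and in markers of other cell types, and their part in the results was not tested. Introns took 12.0% of the gene reads in the Differentiating, 24.3% in the Adherent and 15.2% in the Suspension library. Of 8 listed endothelial markers, 6 were in the table. Of these, 1 passed 5 CPM in the Differentiating library, 6 in the Adherent library and 1 in the Suspension library. Their summed levels were 52.3, 435 and 23.0 CPM. The marker past 5 CPM in all 3 libraries was ERG, which went the other way, with 45.2, 17.4 and 18.5 CPM in the same order. The 4 immune markers summed to 9.95, 106 and 12.3 CPM in the Differentiating, Adherent and Suspension libraries. The muscle genes did not follow the culture labels. The 6 muscle differentiation genes in the table summed to 3201 CPM in the Differentiating library, less than the 7903 CPM of the Adherent and the 8938 CPM of the Suspension library, while 9 fibroblast markers summed to 58916, 9286 and 17317 CPM. The collagens COL1A2 and COL3A1 carried most of that sum. Marker by marker, 5 of the 9 were at least 2-fold higher and 3 lower in Adherent over Suspension, with a median log2 ratio of 1.99. Of all features 20.0% were higher and 21.6% lower there. In Differentiating over Adherent 5 of the 9 were higher and 1 lower, beside 18.3% and 22.7% of all features. In Differentiating over Suspension 8 were higher and 1 lower, beside 9.16% and 14.5%. Summed levels in the Differentiating, Adherent and Suspension libraries were 1065, 3134 and 3697 CPM for 6 myogenic progenitor markers, 808, 601 and 490.3 CPM for 5 pericyte and smooth muscle markers, 98.4, 33.2 and 6.37 CPM for 4 cartilage and bone markers and 324, 315 and 269 CPM for 4 adipocyte markers. ACTA2, ACAN and LPL carried most of the pericyte, cartilage and adipocyte sums of the Differentiating library, and single markers went other ways. In the same order MYH11 had 1.18, 197 and 1.01 CPM, MATN1 0.0438, 28.3 and 0.0419 CPM and ADIPOQ 29.4, 210 and 8.09 CPM. Past 2-fold in Differentiating over Adherent, 2 pericyte markers were higher and 2 lower. For cartilage 2 were higher and 1 lower, and for adipocytes 3 and 1. Of all features 18.3% were higher and 22.7% lower in that comparison. In bulk RNA of this kind, fewer cells of a type and less RNA per cell cannot be told apart.

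Of the 50 members, 35 reached 5 CPM in at least 1 library. All 50 together took 0.203% of the exon reads of the Differentiating library, 0.191% of those of the Adherent library and 0.281% of those of the Suspension library. In all 3 libraries 19 members reached 5 CPM, 8 did so in 2 libraries and 8 in 1 library only. Those 8 were DKK2 and RSPO4 through the Differentiating library and WNT7A through the Suspension library. The others were FZD10, FZD5, LRP6, SFRP1 and WNT2 through the Adherent library. All 8 passed through 1 library only and so had to be highest there, but not by 2-fold.

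**Figure D1:**
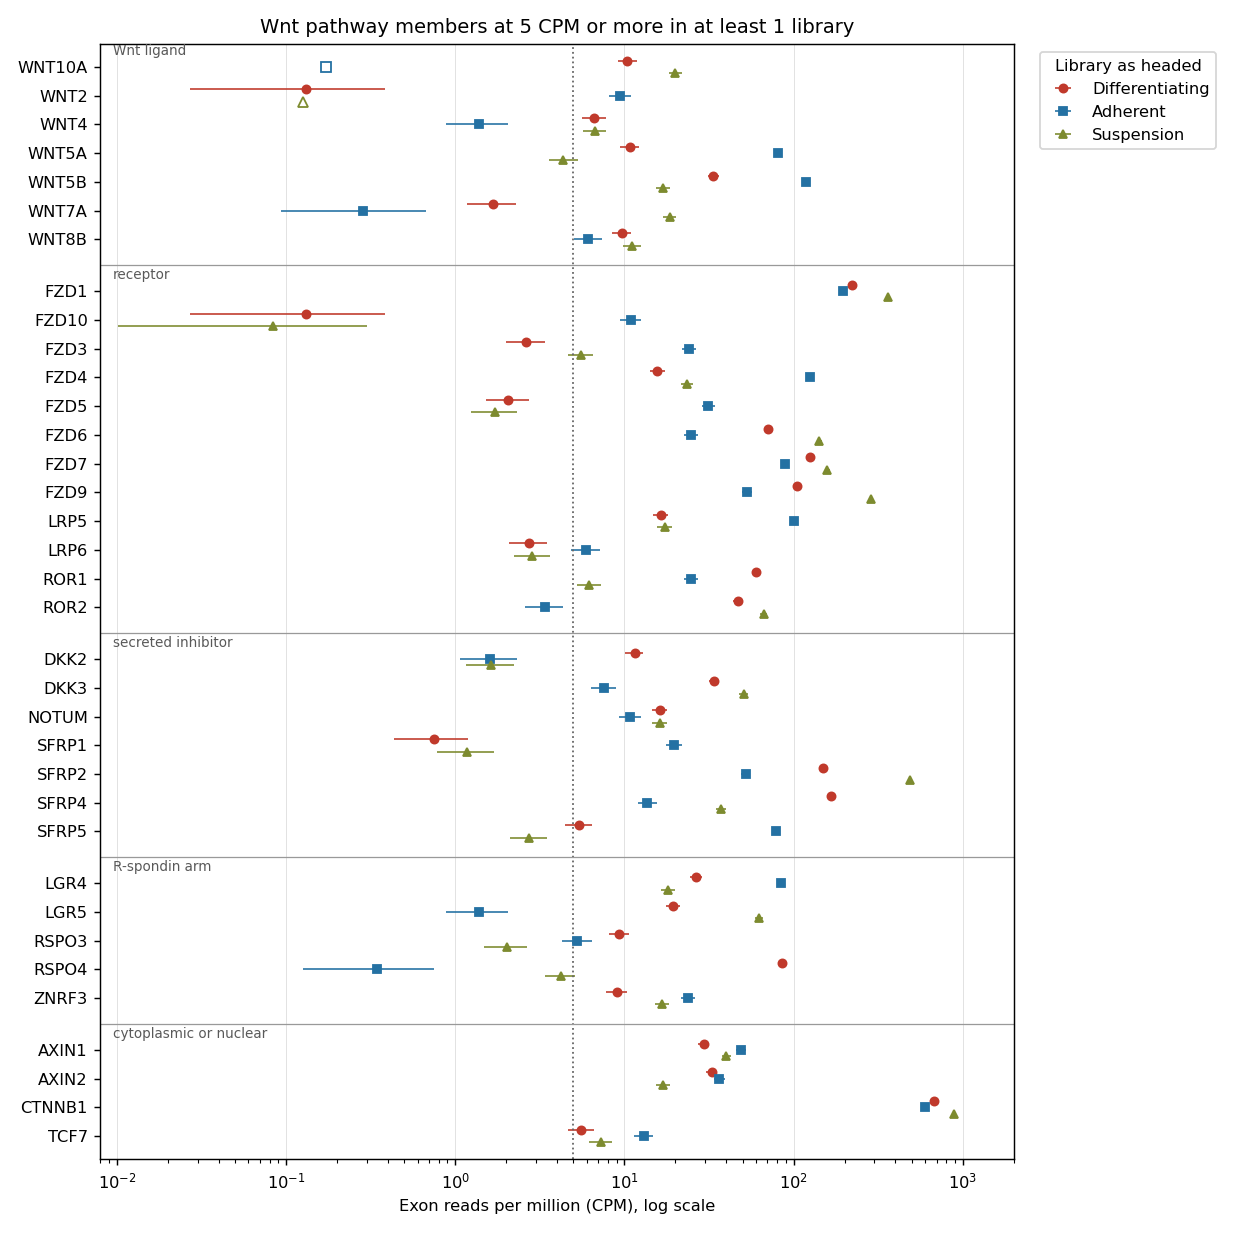
Exon-read CPM on a log axis of the 35 members that reached 5 CPM (dotted line) in at least 1 library, grouped by role, with exact 95% Poisson intervals; open symbols stand at the level of 3 reads where no exon read was counted. The Adherent squares lie far to the left of the other libraries for WNT10A, RSPO4 and LGR5 and far to the right for WNT5A, FZD4 and SFRP5, while CTNNB1 lies between 597 and 884 CPM in all 3 libraries.

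Between the Differentiating and the Adherent library, most of the members differed. Of 35 members compared, 12 were at least 2-fold higher in the Differentiating library, where 18.3% of all 11022 features were, and 14 were at least 2-fold lower, where 22.7% of all features were. The members' median log2 ratio was 0.18 and that of all features −0.05. With TMM the split was 15 higher and 13 lower of 36 members and 2474 higher and 2161 lower of all features, in place of 2017 and 2501, and with median of ratios it was 14 and 13 members. FZD9 then passed 2-fold under both scalings and RSPO3 under TMM. Against the Suspension library fewer members differed: 6 of 33 were at least 2-fold higher in the Differentiating library, beside 9.16% of 10929 features, and 5 were at least 2-fold lower, beside 14.5%, with a median of −0.35 for the members and −0.18 for all features. With TMM or median-of-ratios scaling this split became 10 higher and 4 lower of 34 members, and that of all features became 1221 higher and 1268 lower with TMM and 1256 higher and 1235 lower with median of ratios, in place of 1001 and 1580. Those scalings moved the median of all features by 0.17 to 0.19 on the log2 scale in both comparisons with the Differentiating library. Under them LRP6 in Differentiating over Adherent and FZD3 in Differentiating over Suspension no longer reached 2-fold, while AXIN2, SFRP5 and WNT5B came to be at least 2-fold higher in Differentiating over Suspension. Between the Adherent and the Suspension library 15 of 35 members were at least 2-fold higher in the Adherent library, beside 20.0% of 11020 features, and 11 were at least 2-fold lower, beside 21.6%, with medians of 0.29 for the members and −0.15 for all features. The 3 comparisons share libraries, so they are set side by side and not counted as separate support.

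In 12 of the 35 members the Adherent library was at least 2-fold higher than both others, a pattern held by 15.5% of all features, and in 10 it was at least 2-fold lower than both others, a pattern held by 13.1%. The Differentiating library was highest by that measure in 4 members (DKK2, ROR1, RSPO4 and SFRP4), beside 3.95% of features, and lowest in 1 (FZD3), beside 6.76%. The Suspension library was highest in 4 (FZD9, LGR5, SFRP2 and WNT7A), beside 6.28%, and lowest in 3 (ROR1, RSPO3 and WNT5A), beside 5.48%. These counts include members that passed 5 CPM only through the library where they were high. Such members had to be highest there, but not by 2-fold. They were FZD10, FZD5, LRP6, SFRP1 and WNT2 for the Adherent, DKK2 and RSPO4 for the Differentiating and WNT7A for the Suspension library. Those 4 members high in the Differentiating library and FZD3 keep their pattern whichever way the headings Adherent and Suspension are read. In contrast, 6 members passed 2-fold in none of the 3 comparisons, namely AXIN1, CTNNB1, FZD1, FZD7, NOTUM and WNT8B, whereas 44.9% of all features did so. In exon and intron reads together FZD1 and WNT8B passed 2-fold in Adherent over Suspension, with log2 ratios of −1.05 and −1.14. FZD1 has no intron read, so its ratio changed only because the library totals then include intron reads.

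**Figure D2:**
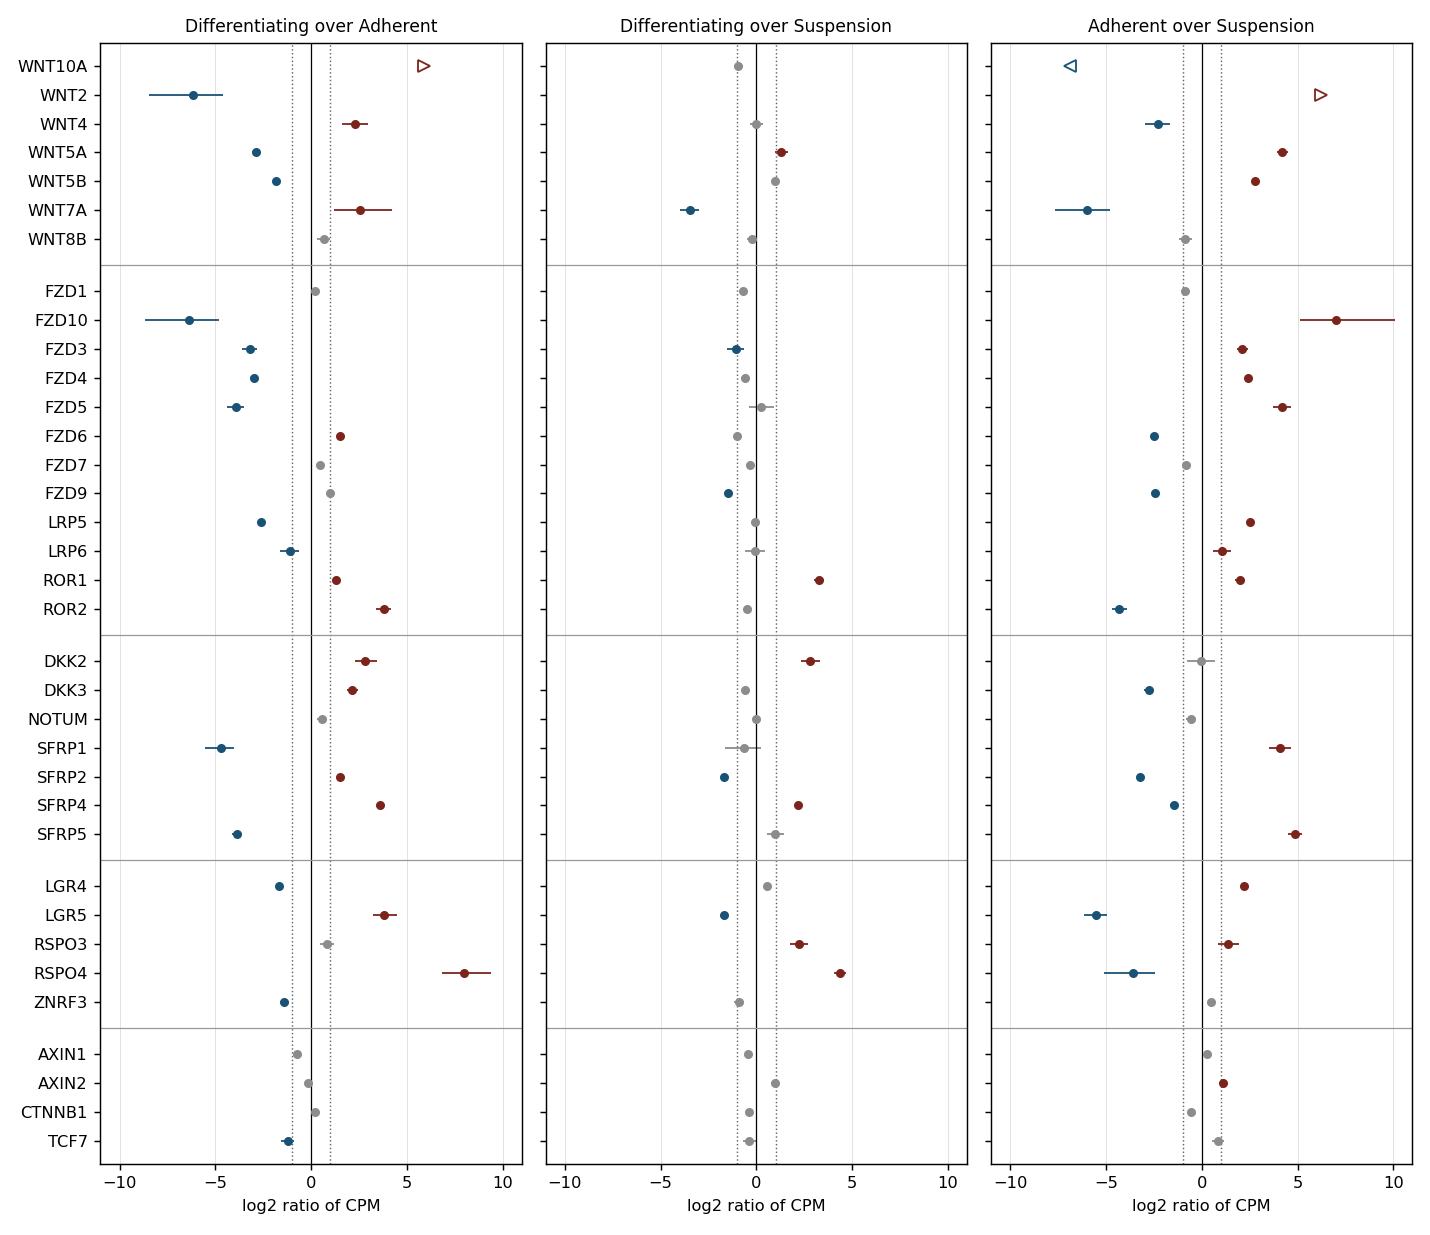
Log2 ratios of CPM for the same members in the 3 comparisons, with 95% Clopper-Pearson intervals. Dark red marks at least 2-fold higher, dark blue at least 2-fold lower and grey neither. The dotted lines stand at 2-fold, and open arrowheads are ratios against a library with 0 reads, set to 3 reads. FZD10 and WNT2 have no point in the Differentiating over Suspension panel because neither library held more than 3 reads, and the points of that panel spread less than those of the panels with the Adherent library.

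Among the Wnt ligands, 7 of 16 reached 5 CPM. WNT2, WNT5A and WNT5B were highest in the Adherent library. WNT4, WNT7A, WNT8B and WNT10A were lowest there, WNT8B within 2-fold.

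WNT5A (chromosome 14, 7526003 to 7535004 as filed) had 10.8 CPM in the Differentiating library, 80.4 CPM in the Adherent library and 4.36 CPM in the Suspension library. Its log2 ratio was −2.90 (95% interval −3.10 to −2.70) in Differentiating over Adherent, 1.31 (0.97 to 1.65) in Differentiating over Suspension and 4.20 (3.92 to 4.51) in Adherent over Suspension. It was therefore, in exon reads, one of 4 members, with WNT7A, SFRP2 and LGR5, for which the Differentiating library lay more than 2-fold from both others and between them. Of all features, 2.53% had the order of WNT5A and 1.98% the reverse order, that of WNT7A, SFRP2 and LGR5. WNT5B had 33.6 CPM in the Differentiating, 118 CPM in the Adherent and 17.0 CPM in the Suspension library, with log2 ratios of −1.81, 0.98 and 2.80. Only 11.9% of its exon reads matched 1 place, and a locus filed over the whole of the gene, LOC100542571, had 28, 47 and 19 exon reads in the same order. Its unique reads, 92 in the Differentiating, 238 in the Adherent and 54 in the Suspension library, gave log2 ratios of −1.77, 0.82 and 2.59, so the order of the libraries did not rest on the shared reads, but its level does.

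WNT10A (chromosome 7, 17815317 to 17824589 as filed) had 237 exon reads (10.4 CPM) in the Differentiating library, no exon read in the Adherent library and 477 exon reads (20.0 CPM) in the Suspension library. These are the columns as headed, and the published names run the other way. With the Adherent count of 0 set to 3 reads, or 0.172 CPM, the level was 60.4-fold higher in the Differentiating than in the Adherent library. On the same setting it was 116-fold lower in the Adherent than in the Suspension library. The exact upper limit for a count of 0 in the Adherent library is 0.211 CPM. The interval of the log2 ratio has its lower limit at 5.61 in Differentiating over Adherent. In Adherent over Suspension it has its upper limit at −6.56. Differentiating over Suspension stayed inside 2-fold, with a log2 ratio of −0.95 (−1.18 to −0.72). WNT6 lies 14.3 kb from WNT10A as filed, and its counts were 20, 9 and 73 exon reads in the Differentiating, Adherent and Suspension libraries, under 5 CPM in each.

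WNT7A had 38 exon reads (1.67 CPM) in the Differentiating library, 5 (0.287 CPM) in the Adherent library and 441 (18.5 CPM) in the Suspension library. The library headed Suspension, with the same reservation on its name, was thus the only one over 5 CPM. The log2 ratio was −3.47 (−3.99 to −2.99) in Differentiating over Suspension and −6.01 (−7.64 to −4.78) in Adherent over Suspension. In Differentiating over Adherent it was 2.54 (1.19 to 4.24) in exon reads but −0.01 in exon and intron reads together, where introns held 20.8% of the gene's reads in the Differentiating library and 88.4% in the Adherent library.

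WNT2 was the reverse case, a ligand with 3 exon reads (0.131 CPM) in the Differentiating library, 165 (9.46 CPM) in the Adherent library and none in the Suspension library. Its log2 ratio was −6.17 (−8.46 to −4.60) in Differentiating over Adherent. With the Suspension count set to 3 reads, its level was 75.2-fold higher in the Adherent than in the Suspension library. The interval of the log2 ratio in Adherent over Suspension has its lower limit at 5.92. WNT4 had 6.62 CPM in the Differentiating library, 1.38 CPM in the Adherent library and 6.67 CPM in the Suspension library. The Differentiating and Suspension levels of WNT4 did not differ beyond counting error, with a log2 ratio of −0.01 (−0.34 to 0.32). WNT8B had 9.64, 6.13 and 11.2 CPM in the Differentiating, Adherent and Suspension libraries, all within 2-fold, but none of its reads crossed an exon junction and 32.3% to 42.5% of them were in introns. It overlaps SEC31B on chromosome 8 (16835188 to 16836576 as filed), so its reads and those of SEC31B cannot be told apart there.

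Per kb of exon, which makes genes comparable, the 16 ligands summed to 44.0 CPM per kb in the Differentiating library, 125 in the Adherent library and 44.2 in the Suspension library. WNT5A made up 18.5% of the ligand sum in the Differentiating, 48.6% in the Adherent and 7.45% in the Suspension library. WNT10A held 15.4% of the sum in the Differentiating library, 0% in the Adherent library and 29.5% in the Suspension library. WNT7A held 1.77% in the Differentiating, 0.11% in the Adherent and 19.5% in the Suspension library, and WNT4 held 12.0%, 0.88% and 12.0% in the same order. In unique reads, where WNT5B counts for little, the sums were 31.3, 81.2 and 39.0 CPM per kb and WNT5A held 27.1%, 78.4% and 8.84% of them.

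**Figure D3:**
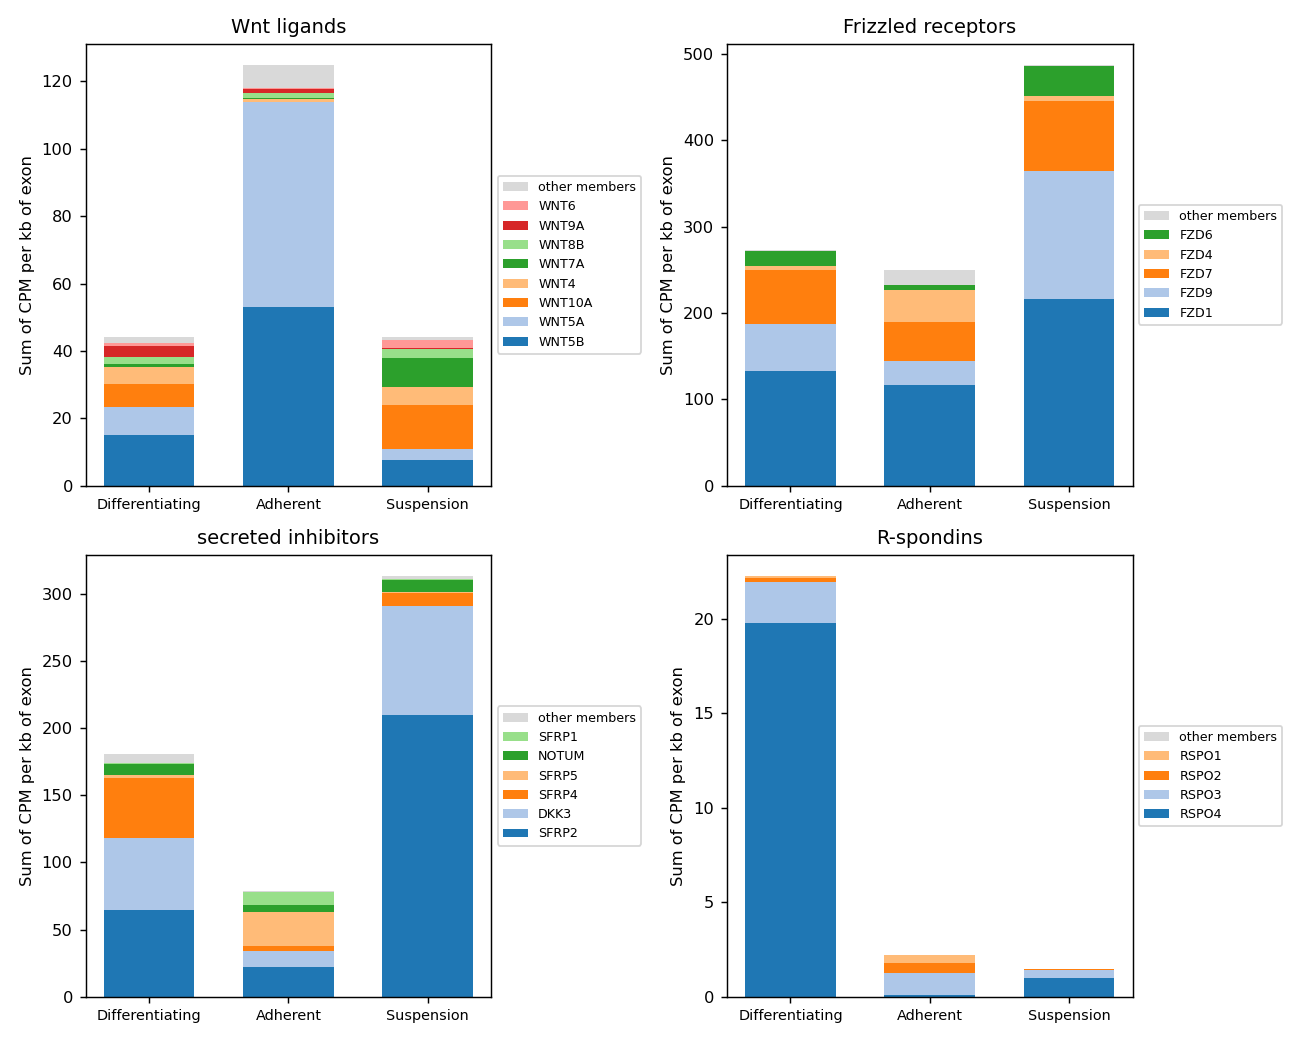
Sums of CPM per kb of exon over the ligands, Frizzled receptors, secreted inhibitors and R-spondins in each library, split by gene, with each vertical axis starting at 0. WNT5A and WNT5B fill most of the Adherent ligand bar, FZD1 is the widest band of all 3 Frizzled bars, SFRP2 fills 67.1% of the Suspension inhibitor bar and RSPO4 fills 89.0% of the Differentiating R-spondin bar.

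All 12 receptors reached 5 CPM in at least 1 library. FZD1 and FZD7, general Frizzled receptors, were abundant and even, while FZD3, FZD4, FZD5, FZD10, LRP5 and LRP6 were highest in the Adherent library and FZD6, FZD9 and ROR2 were lowest there. Past 2-fold in Differentiating over Adherent, 3 of the 12 were higher and 6 lower, beside 18.3% and 22.7% of all features. In Differentiating over Suspension 1 of 11 was higher and 2 lower, beside 9.16% and 14.5%. In Adherent over Suspension 7 were higher and 3 lower, beside 20.0% and 21.6%.

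FZD1 had 221 CPM in the Differentiating library, 195 CPM in the Adherent library and 360.5 CPM in the Suspension library. FZD7 had 124, 89.4 and 158 CPM in that order. In exon reads both stayed within 2-fold in every comparison. FZD9 had 105 CPM in the Differentiating, 53.3 CPM in the Adherent and 288 CPM in the Suspension library, with log2 ratios of 0.98 (0.87 to 1.09), −1.46 (−1.53 to −1.39) and −2.43 (−2.53 to −2.33). FZD6, which in other vertebrates acts in planar polarity, had 70.8 CPM in the Differentiating, 24.9 CPM in the Adherent and 141 CPM in the Suspension library. The log2 ratio of FZD6 was 1.51 in Differentiating over Adherent and −2.51 in Adherent over Suspension, and in Differentiating over Suspension it lay at the limit of a 2-fold change, 1.997-fold lower.

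Frizzled receptors with high Adherent levels included FZD4, which also binds the non-Wnt ligand norrin and is known from blood vessels. It had 15.7 CPM in the Differentiating, 126 CPM in the Adherent and 23.5 CPM in the Suspension library, with log2 ratios of −3.00, −0.58 and 2.42. FZD5 had 2.06, 31.4 and 1.72 CPM, and its Differentiating and Suspension levels did not differ beyond counting error (log2 ratio 0.26, −0.37 to 0.90). FZD10 had 3 exon reads in the Differentiating library, 191 (10.9 CPM) in the Adherent library and 2 in the Suspension library, with log2 ratios of −6.38 (−8.67 to −4.81) in Differentiating over Adherent and 7.03 (5.16 to 10.08) in Adherent over Suspension. FZD3 had 2.63 CPM in the Differentiating, 24.1 CPM in the Adherent and 5.54 CPM in the Suspension library. Its log2 ratios were −3.19, −1.07 and 2.12, and the interval of the second, −1.54 to −0.62, reached inside 2-fold. These receptors were high in the library in which most endothelial markers and the immune markers were also high. The part of those cells in the result was not tested.

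The Frizzled sum was 273 CPM per kb in the Differentiating, 250.2 in the Adherent and 487 in the Suspension library. FZD1 made up 48.8%, 46.7% and 44.5% of it in that order. FZD9 made up 19.7% of the sum in the Differentiating, 10.9% in the Adherent and 30.4% in the Suspension library, and FZD4 1.69%, 14.7% and 1.42%. The share of FZD1 thus varied little between libraries while FZD4 exceeded FZD9 in the Adherent library only.

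The co-receptor LRP5 had 16.4 CPM in the Differentiating library, 100.1 CPM in the Adherent library and 17.3 CPM in the Suspension library. Its Differentiating and Suspension levels did not differ beyond counting error (log2 ratio −0.08, −0.29 to 0.13), and it was 6.11-fold lower in the Differentiating than in the Adherent library. LRP6 had few exon reads, 2.72, 5.90 and 2.85 CPM in the same order. Its ratios against the Adherent library were close to 2-fold (log2 ratio −1.12, −1.60 to −0.65, in Differentiating over Adherent), and introns held 80.8% to 87.1% of its reads in the 3 libraries.

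ROR1 and ROR2, the receptor tyrosine kinases that bind WNT5A, had different patterns. ROR1 had 59.7 CPM in the Differentiating, 24.6 CPM in the Adherent and 6.21 CPM in the Suspension library, with log2 ratios of 1.28 (1.12 to 1.43), 3.26 (3.02 to 3.52) and 1.99 (1.72 to 2.27). ROR2 had 46.8 CPM in the Differentiating, 3.38 CPM in the Adherent and 66.6 CPM in the Suspension library, with log2 ratios of 3.79, −0.51 and −4.30. In exon and intron reads together the ROR2 ratios were 2.07, −0.55 and −2.62, and introns held 11.3% of its reads in the Differentiating, 76.8% in the Adherent and 16.8% in the Suspension library. ROR2 is filed on chromosome W, whereas the RefSeq gene table (Turkey_5.1) places it on Z, as it does all 933 features with a RefSeq symbol that the file puts on W.

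Among the secreted inhibitors, 7 of 8 reached 5 CPM, and the secreted Frizzled-related proteins split into a pair high in the Adherent library (SFRP1 and SFRP5) and a pair low in it (SFRP2 and SFRP4). Past 2-fold in Differentiating over Adherent, 4 of these 7 were higher and 2 lower, beside 18.3% and 22.7% of all features. In Differentiating over Suspension 2 were higher and 1 lower, beside 9.16% and 14.5%. In Adherent over Suspension 2 were higher and 3 lower, beside 20.0% and 21.6%. WIF1, the member under the minimum, had 50, 10 and 84 exon reads in the Differentiating, Adherent and Suspension libraries.

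SFRP2 had 149 CPM in the Differentiating library, 52.0 CPM in the Adherent library and 487 CPM in the Suspension library, with log2 ratios of 1.52 (1.42 to 1.63), −1.71 (−1.76 to −1.65) and −3.23 (−3.33 to −3.13). It was the most abundant inhibitor per kb in the Differentiating and Suspension libraries. SFRP4 had 166 CPM in the Differentiating, 13.6 CPM in the Adherent and 37.1 CPM in the Suspension library. Its log2 ratios were 3.61 (3.42 to 3.80), 2.16 (2.06 to 2.27) and −1.44 (−1.66 to −1.24), which made the Differentiating library the highest by more than 4-fold.

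SFRP5 had 5.39 CPM in the Differentiating, 78.6 CPM in the Adherent and 2.73 CPM in the Suspension library, with log2 ratios of −3.87, 0.98 and 4.85. SFRP1 had 17 exon reads (0.745 CPM) in the Differentiating library, 344 (19.7 CPM) in the Adherent library and 28 (1.17 CPM) in the Suspension library. Its Differentiating and Suspension levels did not differ beyond counting error, with a log2 ratio of −0.66 (−1.62 to 0.26). SFRP5 was 28.9-fold and SFRP1 16.8-fold higher in the Adherent than in the Suspension library.

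DKK3, a divergent Dickkopf protein, had 33.8 CPM in the Differentiating library, 7.57 CPM in the Adherent library and 50.7 CPM in the Suspension library. Its log2 ratios were 2.16, −0.59 and −2.74. DKK2, which binds LRP5 and LRP6, had 262 exon reads (11.5 CPM) in the Differentiating library, 28 (1.61 CPM) in the Adherent and 39 (1.64 CPM) in the Suspension library. It was 7.15-fold higher in the Differentiating than in the Adherent library and 7.02-fold higher than in the Suspension library. Only 56.5% of its exon reads matched 1 place and introns held 60.6%, 76.1% and 50% of its gene reads in the Differentiating, Adherent and Suspension libraries; unique reads gave log2 ratios of 2.58, 3.10 and 0.53. NOTUM, which removes the lipid from Wnt proteins, had 16.2, 10.8 and 16.2 CPM and passed 2-fold in no comparison.

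The inhibitors summed to 181 CPM per kb in the Differentiating, 78.9 in the Adherent and 313 in the Suspension library. SFRP2 made up 35.6%, 28.4% and 67.1% of that sum in the same order. SFRP4 held 24.9% in the Differentiating, 4.68% in the Adherent and 3.21% in the Suspension library, and SFRP5 held 0.94%, 31.4% and 0.27%. DKK3 held between 15.2% and 29.7% in the 3 libraries. SFRP2 and DKK3 were thus shared by all cultures, whereas SFRP4 was a large share in the Differentiating library and SFRP5 in the Adherent library.

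In the R-spondin arm, 5 of 9 members reached 5 CPM, and RSPO4 showed the widest ratio of any member with reads in all 3 libraries. RSPO4 (chromosome 22, 5425270 to 5432135 as filed) had 1950 exon reads (85.5 CPM) in the Differentiating library, 6 (0.344 CPM) in the Adherent library and 100 (4.19 CPM) in the Suspension library. It was 248-fold higher in the Differentiating than in the Adherent library, a log2 ratio of 7.96 (6.83 to 9.41). These are the columns as headed, and the published table lists RSPO4 as high in differentiating against suspension cells. In Differentiating over Suspension its log2 ratio was 4.35 (4.06 to 4.65), and all of its exon reads matched 1 place. RSPO3 had 9.29 CPM in the Differentiating, 5.27 CPM in the Adherent and 2.01 CPM in the Suspension library, with log2 ratios of 0.82 (0.46 to 1.19), 2.21 (1.75 to 2.69) and 1.39 (0.87 to 1.92). RSPO1 had 4, 18 and 0 exon reads and RSPO2 had 4, 6 and 1 in the Differentiating, Adherent and Suspension libraries. The R-spondins summed to 22.2 CPM per kb in the Differentiating library, 2.2 in the Adherent library and 1.49 in the Suspension library, and RSPO4 made up 89.0%, 3.62% and 65.1% of those sums.

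The R-spondin receptors LGR4 and LGR5 were ordered in opposite ways. LGR4 had 26.6 CPM in the Differentiating, 84.7 CPM in the Adherent and 18.0 CPM in the Suspension library, with log2 ratios of −1.67, 0.56 and 2.23. LGR5, a stem cell marker of several mouse epithelia, had 19.4 CPM in the Differentiating, 1.38 CPM in the Adherent and 62.3 CPM in the Suspension library. Its log2 ratios were 3.82 (3.22 to 4.47), −1.68 (−1.84 to −1.53) and −5.50 (−6.15 to −4.92). Introns held 7.14% of the LGR5 reads in the Differentiating, 72.4% in the Adherent and 2.37% in the Suspension library, and in exon and intron reads together its log2 ratios were 2.28, −1.56 and −3.84. The ligase ZNRF3 had 8.98 CPM in the Differentiating, 23.7 CPM in the Adherent and 16.7 CPM in the Suspension library and was 2.64-fold lower in the Differentiating than in the Adherent library, whereas its relative RNF43 had 16, 19 and 32 exon reads. LGR6 had 17 exon reads in the Differentiating and the Adherent library and 1 in the Suspension library.

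Among the cytoplasmic and nuclear members, 4 of 5 reached 5 CPM. Past 2-fold, 1 of these was lower in Differentiating over Adherent, beside 22.7% of all features. None passed 2-fold in Differentiating over Suspension, where 9.16% of all features were higher and 14.5% lower. In Adherent over Suspension 1 was higher, beside 20.0% of all features. CTNNB1 had 678 CPM in the Differentiating library, 597 CPM in the Adherent library and 884 CPM in the Suspension library, with log2 ratios of 0.18, −0.38 and −0.57. AXIN1, the scaffold of the destruction complex, had 29.5, 49.1 and 40.1 CPM. AXIN2, a feedback target of β-catenin signalling in many vertebrate tissues, had 32.8 CPM in the Differentiating, 36.5 CPM in the Adherent and 16.9 CPM in the Suspension library. Its log2 ratio was −0.15 (−0.31 to 0.00) in Differentiating over Adherent, 0.95 (0.78 to 1.13) in Differentiating over Suspension and 1.11 (0.92 to 1.29) in Adherent over Suspension, but 0.97 there in exon and intron reads together. TCF7 had 5.57, 13.0 and 7.26 CPM in the Differentiating, Adherent and Suspension libraries and was 2.34-fold lower in the Differentiating than in the Adherent library. LEF1 stayed under 5 CPM, with 27 exon reads in the Differentiating library, none in the Adherent library and 41 in the Suspension library, although its introns held 3, 60 and 10 reads in that order. TCF7L1 and TCF7L2 had no row under those names.

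The 15 members under 5 CPM were LEF1, LGR6, RNF43, RSPO1, RSPO2, WIF1 and the ligands WNT11, WNT16, WNT2B, WNT3, WNT3A, WNT6, WNT7B, WNT9A and WNT9B. Their highest levels were 4.95 CPM for WNT9A in the Differentiating library, 3.10 CPM for WNT16 in the Adherent library and 3.52 CPM for WIF1 in the Suspension library. WNT9A, with 113, 33 and 16 exon reads in the Differentiating, Adherent and Suspension libraries, was just short of the minimum. WNT3 was near the limit of detection, with 0, 1 and 0 exon reads. The exact upper limit for a count of 0 is 0.162 CPM in the Differentiating and 0.155 CPM in the Suspension library. WNT11 had 20, 11 and 11 exon reads, but its introns held 81.0% to 84.5% of the reads filed under it.

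Intron reads were a readout that the choice of members did not use. Over the 35 members that reached 5 CPM, the median share of gene reads in introns was 3.99% in the Differentiating, 12.8% in the Adherent and 3.59% in the Suspension library, against medians over all features of 6.14%, 13.1% and 6.12%. More than 50% of the gene reads were intronic for 2 members in the Differentiating library, 6 in the Adherent library and 2 in the Suspension library. The same count was not made over all features, so these counts have no background beside them. The Adherent library also had the highest intron share over all its gene reads. The Adherent count includes WNT10A, at 100% from 1 intron read. The Suspension count is LRP6 and WNT2, with WNT2 at 100% from 2 intron reads. LRP6 and DKK2 were high in all 3 libraries, DKK2 at exactly 50% in the Suspension library. The shares of ROR2, LGR5 and WNT7A were high only where their exon reads were fewest. FZD1, FZD5, FZD7, FZD9 and FZD10 had no intron read, as these genes are filed with a single exon.

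**Figure D4:**
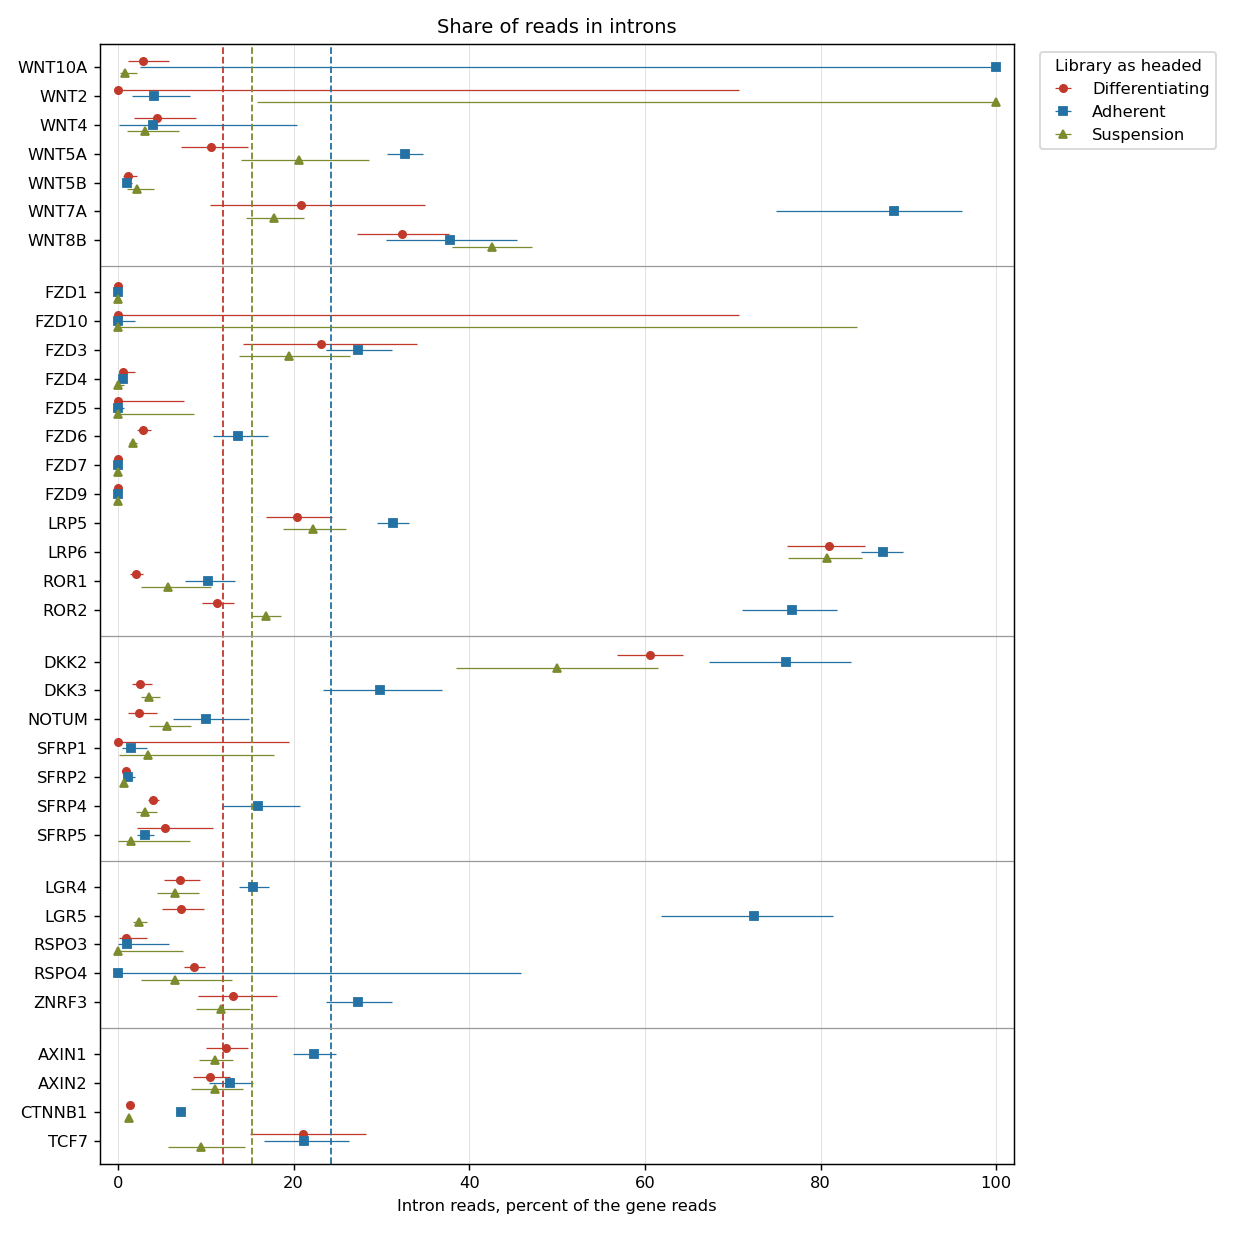
Share of gene reads in introns for the 35 members, in percent, with exact 95% Clopper-Pearson intervals; dashed lines are each library's share over all features, 12.0% in Differentiating, 24.3% in Adherent and 15.2% in Suspension. ROR2, LGR5 and WNT7A have Adherent squares at 72.4% or more while their other points lie at 20.8% or less, and the wide bars of WNT10A, WNT2 and FZD10 come from libraries with at most 3 reads.

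By position as filed, 6 pairs of members lay 14.3 to 447 kb apart. The closest, WNT6 and WNT10A on chromosome 7, were both highest in the Suspension library. WNT9B and WNT3 on chromosome 29 lay 28.2 kb apart and were both under 5 CPM, as were WNT3A and WNT9A, 107 kb apart on chromosome 6. FZD7 and FZD5 on chromosome 7, 447 kb apart, differed in pattern, FZD7 being even and FZD5 being 15.2-fold lower in the Differentiating than in the Adherent library. The study's methods name a turkey assembly for its alignment, but whether the positions in this table use it is not stated. Against the RefSeq gene table (Turkey_5.1), all 50 members started within 50 kb of the RefSeq start. The end was equal for 26 members and the chromosome name for 49.

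Other genes of the pathway were taken from lists made by function, with earlier results of these data known. Of each list, up to 4 genes are named by size of change and 2 by mean level. The named genes therefore lean to large ratios, and only the counts describe a whole list. The counts of each list stand beside the shares of all features past 2-fold. Those shares were 18.3% higher and 22.7% lower in Differentiating over Adherent, and 9.16% higher and 14.5% lower in Differentiating over Suspension. In Adherent over Suspension they were 20.0% higher and 21.6% lower. Of the 5 genes of ligand secretion and surface cofactors that reached 5 CPM, 2 were higher past 2-fold and 1 lower in Differentiating over Adherent, 1 was higher and 0 lower in Differentiating over Suspension, and 2 were higher and 2 lower in Adherent over Suspension. WLS, the carrier that brings Wnt proteins to the cell surface, had 637 CPM in the Differentiating library, 20.8 CPM in the Adherent library and 513 CPM in the Suspension library, with log2 ratios of 4.94 (4.79 to 5.09), 0.31 (0.28 to 0.35) and −4.63 (−4.78 to −4.48). The library with the highest ligand sum thus had the lowest WLS level. GPC4, a glypican that binds Wnt proteins, had 746, 173 and 532 CPM in the Differentiating, Adherent and Suspension libraries. ADGRA2, a WNT7-specific co-activator known from brain endothelium in mouse, had 28.4 CPM in the Differentiating, 226 CPM in the Adherent and 16.3 CPM in the Suspension library, and GPC3 had 6.0, 3.96 and 1.01 CPM.

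Among other secreted or membrane inhibitors, 5 reached 5 CPM, of which 2 were higher and 2 lower in Differentiating over Adherent, 3 were higher and 2 lower in Differentiating over Suspension, and 1 was higher and 1 lower in Adherent over Suspension. SHISA2, which retains Frizzled receptors inside the cell in frog embryos, had 736 CPM in the Differentiating, 32.2 CPM in the Adherent and 1769 CPM in the Suspension library, with log2 ratios of 4.52, −1.27 and −5.78. FRZB, a further Frizzled-related protein, had 72.4 CPM in the Differentiating, 209 CPM in the Adherent and 10.8 CPM in the Suspension library. Its log2 ratios were −1.53, 2.74 and 4.27, an order of libraries like that of WNT5A. KREMEN1, a DKK receptor, had 36.1, 282 and 209 CPM in the Differentiating, Adherent and Suspension libraries. BAMBI had 9.07, 4.53 and 3.31 CPM. It was among the higher genes in both comparisons with the Differentiating library, with log2 ratios of 1.00 (0.62 to 1.40) and 1.45. The first of these lay at the limit of a 2-fold change. Whether BAMBI acts as a Wnt inhibitor in these cells was not tested.

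Of the 11 planar polarity and non-canonical receptor genes that reached 5 CPM, 5 were higher and 1 lower in Differentiating over Adherent, 2 were higher and 2 lower in Differentiating over Suspension, and 1 was higher and 5 lower in Adherent over Suspension. PTK7, a Wnt co-receptor of the polarity branch, had 1082 CPM in the Differentiating, 296 CPM in the Adherent and 693 CPM in the Suspension library. PRICKLE2 had 115, 11.5 and 54.2 CPM in that order. CELSR1 and SCRIB were highest in the Suspension library, with 45.8, 28.9 and 170.2 CPM for CELSR1 and 49.7, 24.1 and 188 CPM for SCRIB in the Differentiating, Adherent and Suspension libraries.

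Of 15 genes of the cytoplasmic relay and destruction complex, 1 was higher and 2 lower in Differentiating over Adherent, 1 was higher and 2 lower in Differentiating over Suspension, and 1 was higher and 4 lower in Adherent over Suspension. CSNK1A1 and GSK3B, the kinases that mark β-catenin for destruction, stayed within 2-fold, with 431, 434 and 588 CPM for CSNK1A1 and 91.3, 132 and 148 CPM for GSK3B in the Differentiating, Adherent and Suspension libraries. NKD1, a feedback inhibitor that binds Dishevelled, had 16.0 CPM in the Differentiating, 1.66 CPM in the Adherent and 23.4 CPM in the Suspension library, with log2 ratios of 3.26, −0.56 and −3.82. DACT1 had 36.8, 84.6 and 185 CPM and DACT2 had 6.97, 17.7 and 1.55 CPM in the same order, so these related Dishevelled partners were highest in different libraries. DVL1 had 41.9, 52.4 and 114 CPM, of which 19.7% were unique reads.

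Of 7 nuclear cofactors, 3 were higher and 0 lower in Differentiating over Adherent, 0 of 7 passed 2-fold in Differentiating over Suspension, and 0 were higher and 2 lower in Adherent over Suspension. CBY1, which binds β-catenin and exports it from the nucleus, had 50.3 CPM in the Differentiating, 9.11 CPM in the Adherent and 46.3 CPM in the Suspension library. PYGO1 had 6.62, 1.83 and 11.1 CPM and BCL9L had 13.9, 5.73 and 10.1 CPM in the same order. BCL9, with 53.6, 70.0 and 68.1 CPM, and TLE3, with 60.2, 97.6 and 91.2 CPM, stayed within 2-fold.

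Genes known as β-catenin and TCF targets in other vertebrates did not move in one direction. Of 11 that reached 5 CPM, 4 were higher and 5 lower in Differentiating over Adherent. In Differentiating over Suspension 3 were higher and 4 lower, and in Adherent over Suspension 2 were higher and 4 lower. NKD1 and BAMBI, both higher in Differentiating over Adherent, were also counted in the relay and inhibitor lists above. The lists are therefore not separate observations. MMP7, a metalloprotease, had 39.0 CPM in the Differentiating library, 1 read (0.0573 CPM) in the Adherent library and 5.70 CPM in the Suspension library, with log2 ratios of 9.41 (6.93 to 14.71), 2.77 (2.51 to 3.04) and −6.64 (−11.95 to −4.13). FGF18 had 1.40 CPM in the Differentiating, 13.9 CPM in the Adherent and 0.503 CPM in the Suspension library. TNFRSF19 had 10.2, 66.7 and 80.2 CPM in the same order, lower in the Differentiating library than in both others. CD44 had 97.8, 42.7 and 243 CPM, and ID2 had 72.7, 239 and 68.3 CPM.

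**Figure D5:**
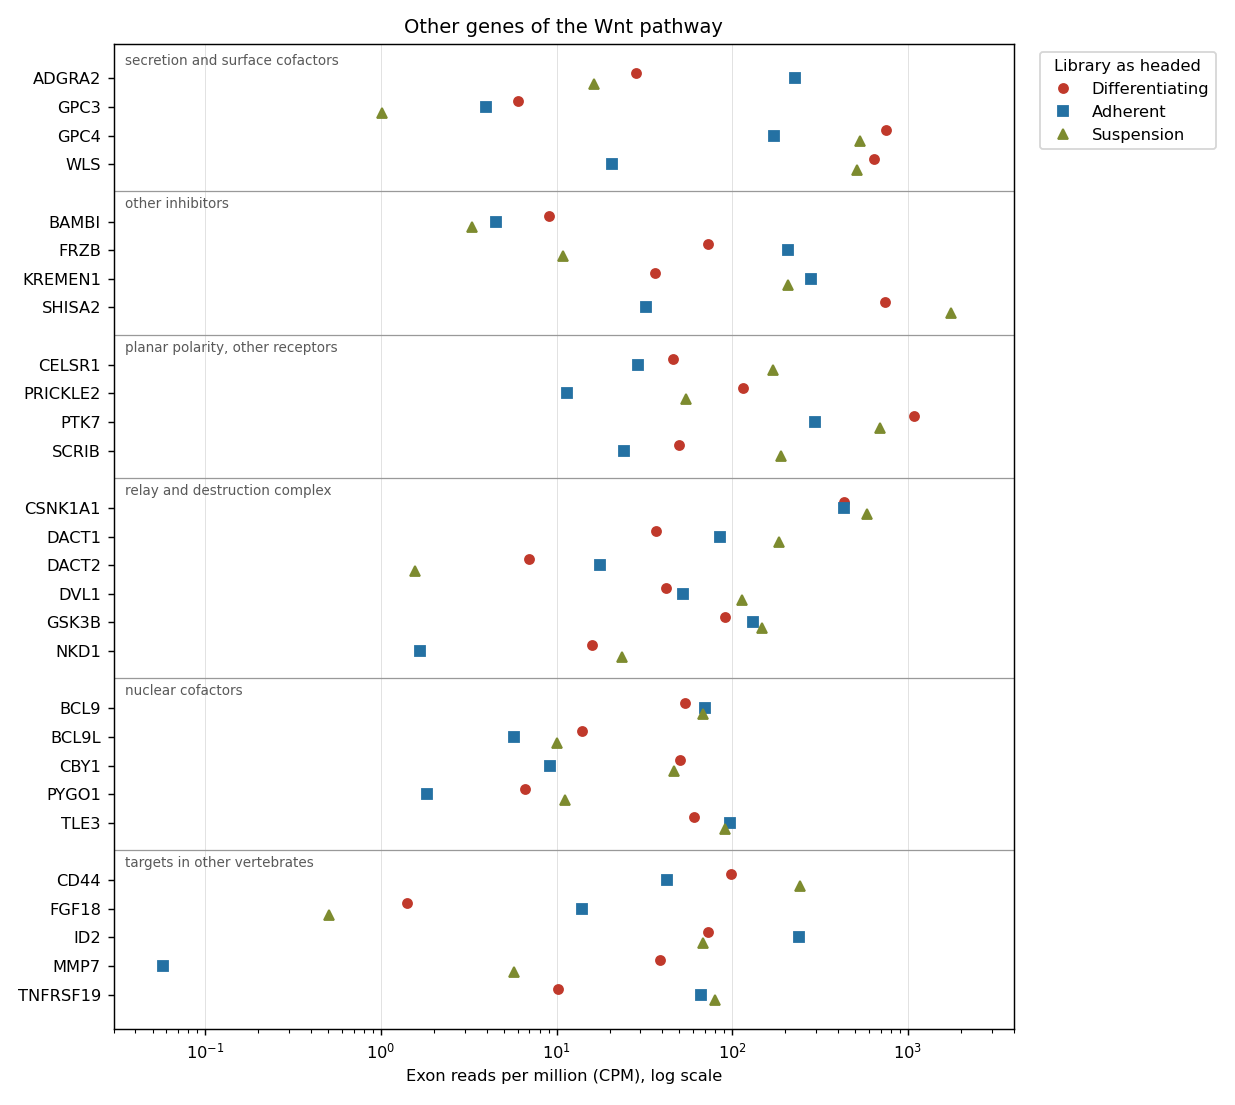
Exon-read CPM on a log axis for the named genes of the other pathway lists, by list, in each library. WLS, SHISA2, NKD1, CBY1 and MMP7 have their Adherent square furthest left, ADGRA2, FRZB, FGF18 and ID2 have it furthest right, and CSNK1A1, GSK3B, BCL9 and TLE3 have all 3 symbols close together.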

How the data were processed

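RNA-seq of 3 pooled libraries, 1 per culture, was used. The counts deposited by the authors are reads per gene on exons, on introns, across exon junctions and matching 1 place, with no scaling; the exon length is filed beside them. The submitters' notes name bcl2fastq 2.20 and STAR 2.5.2b; the sources used here do not say that this table was made with them. The authors' fold-change scores are signed ratios of counts and served only to see which columns a heading meant.

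Libraries were scaled to the sum of exon reads, with no pseudocount; whether counting used strand is not stated. The tools were R 4.3.3 with edgeR 4.0.16 for TMM, and scipy 1.17.1, pandas 2.3.3, numpy 2.4.6 and matplotlib 3.10.9 under Python 3.11.15. The ratio code was tested on simulated data. All 35 members at 5 CPM or more were named, and, of each other list, up to 4 genes by size of change and 2 by mean level. The members and lists were chosen with earlier results of these data known. Symbols of all 50 members matched the RefSeq table, whose coordinates were only compared with the positions as filed. With 1 library per culture no p-value was computed. Alternatives were other scalings, a pseudocount of 1 CPM, no minimum or 50 CPM, 4-fold, intervals beyond 2-fold, unique reads, gene reads and exchanged headings. Of 9 lists of cell type markers, 8 are given and 1 is not reported here.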

Additional observations from a re-analysis of the deposited data

How the results depend on the processing

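No paired analysis was possible because each culture had 1 library, and no replicate could be left out. In Differentiating over Adherent, the members' median log2 ratio, 0.18, was 0.51 with TMM, 0.49 with median of ratios, 0.34 in unique reads, 0.31 in gene reads, 0.73 at 50 CPM and −0.15 with no minimum. The 14 lower members became 6 at 50 CPM and 9 at 4-fold. In Differentiating over Suspension, 10 members were higher with TMM, with median of ratios and with no minimum, and 3 were lower at 50 CPM and 1 at 4-fold. In Adherent over Suspension, 23 members were higher with no minimum and 7 at 50 CPM, and the median was −0.86 at 50 CPM and 0.87 in gene reads. The cause of these moves beyond the change in genes compared was not tested. Among the alternatives, counts over all features are given for the scalings only, so the other counts have no background beside them. TMM and median of ratios lost LRP6 in Differentiating over Adherent and FZD3 in Differentiating over Suspension, as did the pseudocount, and gained AXIN2, SFRP5 and WNT5B in Differentiating over Suspension; unique reads lost no call, and gene reads lost WNT7A, FZD3 and AXIN2, 1 in each comparison, and gained FZD9 and RSPO3 in Differentiating over Adherent, SFRP5 and WNT5B in Differentiating over Suspension, and FZD1 and WNT8B in Adherent over Suspension. FZD1 and FZD9 have no intron read, so their ratios in gene reads changed only with the library totals. WNT7A in Differentiating over Adherent was −0.012 in gene reads.

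With the columns headed Suspension and Adherent exchanged, Differentiating over Adherent had 6 higher and 5 lower members and a median of −0.35, and its log2 ratios turned to −0.59 for DKK3, 0.26 for FZD5, −0.998 for FZD6, 0.56 for LGR4, −1.68 for LGR5, −0.51 for ROR2, −1.71 for SFRP2, 0.98 for SFRP5, −0.95 for WNT10A, −0.011 for WNT4, 1.31 for WNT5A, 0.98 for WNT5B and −3.47 for WNT7A. Differentiating over Suspension had 12 higher and 14 lower members and a median of 0.18, and turned to 0.98 for FZD9, 3.82 for LGR5, 1.52 for SFRP2, −2.90 for WNT5A and 2.54 for WNT7A. Adherent over Suspension had a median of −0.29, and turned to −1.11 for AXIN2, 2.74 for DKK3, −7.03 for FZD10, −2.12 for FZD3, −2.42 for FZD4, −4.19 for FZD5, 2.51 for FZD6, 2.43 for FZD9, −2.23 for LGR4, 5.50 for LGR5, −2.53 for LRP5, −1.05 for LRP6, −1.99 for ROR1, 4.30 for ROR2, −1.39 for RSPO3, 3.61 for RSPO4, −4.07 for SFRP1, 3.23 for SFRP2, 1.44 for SFRP4, −4.85 for SFRP5, 6.86 for WNT10A, −6.23 for WNT2, 2.28 for WNT4, −4.20 for WNT5A, −2.80 for WNT5B and 6.01 for WNT7A. Depth limits members with few reads: 3 reads were 0.126 to 0.172 CPM.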
